A study of Caenorhabditis elegans with 4 samples.

Results

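The SKR, cullin, BATH, MATH and BTB genes of Caenorhabditis elegans are the 122 genes whose names are skr, cul, bath, math or btb followed by a number, out of 18468 genes and 18638 features compared. They comprised 19 skr, 6 cul, 43 bath, 34 math and 20 btb genes, and the choice used names only, no measured value. RNA was compared between whole gravid adults of YY1449, a strain mutant for rde-3, and of N2, the standard laboratory wild type, with 2 libraries of poly(A) RNA per strain. The gene rde-3 is also named mut-2 and codes for an enzyme of RNA interference that extends RNAs with stretches of UG repeats. The labels give no allele of rde-3. With 1 strain per genotype, the mutation of rde-3 and any other difference of the strains cannot be told apart. In whole animals, fewer cells of a type and less RNA per cell cannot be told apart.

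Cullins are the scaffolds of a large class of ubiquitin ligases. At one end a cullin holds a RING protein that brings the ubiquitin-loaded enzyme, and at the other an adaptor that brings the substrate. SKR proteins are Skp1-related adaptors that join CUL-1, or in a few cases CUL-6, to F-box proteins. CUL-2 uses elongin adaptors, CUL-3 binds BTB-domain proteins directly, and CUL-4 uses DDB-1. BATH proteins carry a BTB domain that can bind CUL-3 and a MATH domain that can bind a substrate, as in MEL-26, while MATH proteins carry the MATH domain alone and BTB proteins the BTB domain. The nematode SKR, BATH and MATH families are large and much of them lies in clusters of related copies.

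The authors' deposited table lists for each feature the mean of the normalized counts of 4 libraries, the log2 fold change with a standard error, and an adjusted p from a Benjamini-Hochberg adjustment over all 18638 features, used here at a threshold of 0.05. A positive log2 fold change was taken as higher in YY1449, going by the name of the comparison, which puts mut-2 before wild type. The reads of each library were recovered from the deposited means, and all 122 genes had exactly 1 set of 4 whole numbers that gave the mean. Libraries are called a and b by their size factor, the larger first, and carry no replicate number. Over the 18377 features with 1 such set, the YY1449 libraries a and b held 9930898 and 6209412 reads and the N2 libraries 11718381 and 8397421. Values per library below are these reads divided by the size factor, called normalized counts and always given as library a and then b. With 2 libraries against 2, an exact two-sided permutation test cannot go below p = 0.333, so only the fit across all features was used for calls. The gene rde-3 itself, listed as mut-2, had 846 and 745 normalized counts in YY1449 and 726 and 805 in N2, and its change was log2 0.06 ± 0.16 by the authors' deposited table (adjusted p = 0.905). Without a known allele this value checks neither the labels nor the direction. RNA of marker genes of other cell types also differed. Of 39 sperm genes 32 were lower and 0 higher in YY1449, with summed normalized counts of 822 and 870 in YY1449 against 6702 and 4969 in N2, and 2 of the 39 were at 0 in both YY1449 libraries. All 7 body wall muscle genes were lower, with sums over 6 of them of 13299 and 12488 in YY1449 against 37488 and 39145 in N2. Of 14 oocyte and eggshell genes 12 were higher (median log2 0.47), of 6 yolk genes 1 was higher and 2 were lower, and none of 5 neuron genes passed. The part of these shifts in the values below was not tested.

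More of the family genes rose than fell in YY1449, with a share called near that of the whole table. Of the 122 genes 20, or 16.4%, passed in the authors' deposited table, against 17.5% of all features. Of these, 17 were higher and 3 were lower, where 9.42% of all features were higher and 8.04% lower. The median log2 fold change was 0.20 over the 122 genes and -0.02 over all features. Calls followed abundance: 0 of 28 genes with a mean under 10 passed, 8 of 55 with a mean of 10 to 100 (12.7% of all features in that range), 12 of 39 with a mean of at least 100 (34% of all features), and 5 of the 11 with a mean of at least 1000 (47% of all features). The calls in the range of 10 to 100 were 7 higher and 1 lower, where 5.6% of all features there were higher. Those at 100 and above were 10 higher and 2 lower, where 19.1% of all features were higher, and the 5 at 1000 and above were all higher, where 32.5% of all features were. Both YY1449 libraries stood above both N2 libraries for 53 of the 122 genes, or 43.4%, against 29.4% of all features, and below them for 26, or 21.3%, against 30.2%. The groups overlapped for the other 43 genes. By family, 4 of 19 skr, 4 of 6 cul and 8 of 43 bath genes rose and none fell, 1 of 34 math genes rose and 1 fell, and 2 of 20 btb genes fell.

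**Figure D1:**
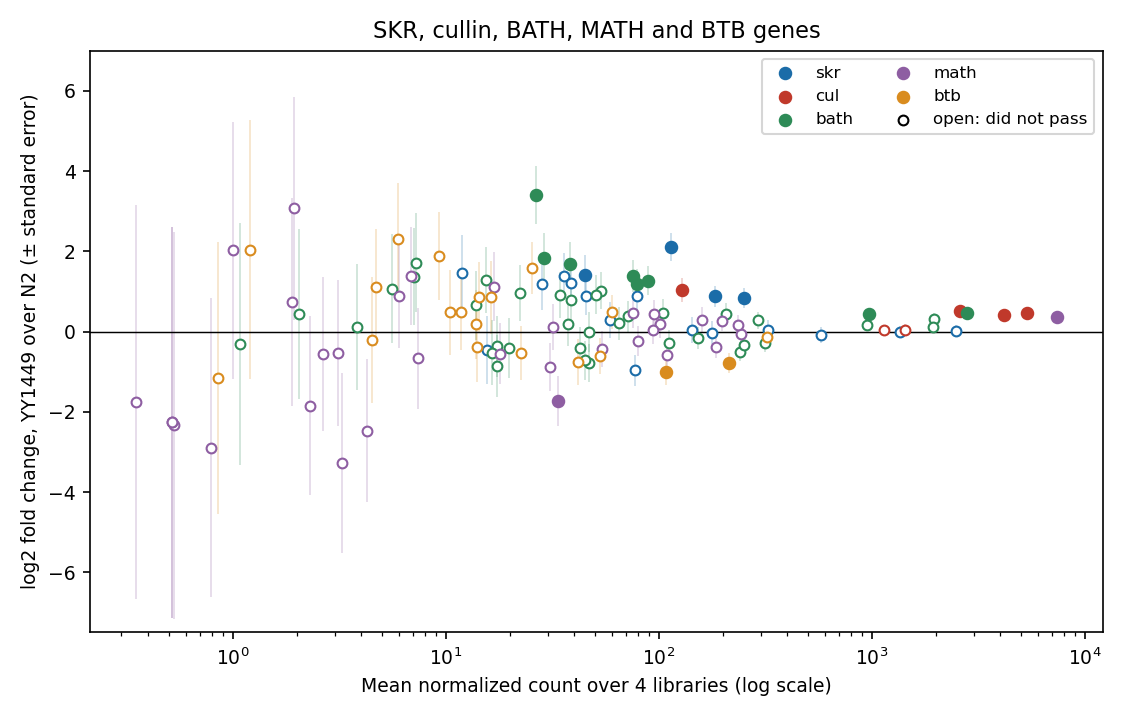
Log2 fold change (YY1449 over N2, ± the deposited standard error) of the 122 genes against the mean normalized count over 4 libraries (log scale), coloured by family. Filled points passed at an adjusted p of 0.05 and open points did not. The 17 higher and 3 lower filled points all have a mean above 10, and the widest error bars belong to math and btb genes with means under 10.

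Among the scaffolds, the RNA of cul-1, cul-2, cul-3 and cul-6 rose in YY1449, and that of cul-4 and cul-5 did not pass. All but cul-6 had a mean above 1000, where 47% of all features were called and 32.5% were higher. With its mean of 127.7, cul-6 lay among features with a mean of at least 100, of which 34% were called and 19.1% were higher. The genes cul-1, cul-2 and cul-3 rose by 1.34- to 1.43-fold and cul-6 by 2.05-fold. The gene cul-1 (chromosome III, 10471237 to 10475129, build WBcel235), the scaffold of the SCF ligases, had 3193 and 2899 normalized counts in YY1449 against 2043 and 2229 in N2. Its log2 fold change in the authors' deposited table was 0.51 ± 0.13 (adjusted p = 0.000777). The scaffold of ligases with elongin adaptors, cul-2 (chromosome III, 13687269 to 13692683), had 6596 and 5713 normalized counts in YY1449 against 4263 and 4693 in N2. For cul-2 the authors' deposited table lists log2 0.46 ± 0.13 (adjusted p = 0.00273). The partner of BTB proteins, cul-3 (chromosome V, 177417 to 185172), had 5136 and 4402 in YY1449 against 3403 and 3705 in N2. By the authors' deposited table cul-3 changed by log2 0.43 ± 0.13 (adjusted p = 0.00768). In all 3 genes YY1449 library a was the highest of the 4 and N2 library a the lowest, and the groups did not overlap.

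The cullin of the intracellular pathogen response, cul-6 (chromosome IV, 12586485 to 12590451), had 158.1 and 185 normalized counts in YY1449 against 81.1 and 86.2 in N2. The authors' deposited table listed cul-6 at log2 1.04 ± 0.30 (adjusted p = 0.00623). For cul-4, the scaffold used with DDB-1, the libraries read 1461 and 1451 in YY1449 against 1379 and 1447 in N2. The cul-4 log2 fold change in the authors' deposited table was 0.04 ± 0.13, with a 95% interval of -0.22 to 0.31 (adjusted p = 0.912). For cul-5, which in mammals works with SOCS-box receptors, the values were 1139 and 1175 in YY1449 against 1093 and 1171 in N2. The log2 fold change of cul-5 was 0.03 ± 0.14 in the authors' deposited table, with an interval of -0.24 to 0.31 (adjusted p = 0.938). Both intervals exclude a change as large as that of cul-1, 0.51 on the log2 scale, but a difference between cullins was not tested. Per kilobase of exon, the mean normalized counts were 1953 in YY1449 and 1421 in N2 for cul-2, 1507 and 1123 for cul-3, 1177 and 825 for cul-1, 527 and 512 for cul-4, 447 and 437 for cul-5, and 75.3 and 36.7 for cul-6. The order of the 6 cullins was thus the same in both strains, and cul-6 stood far under the rest.

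Of the cullin calls, cul-1 passed with any 1 library left out. Without YY1449 library a the adjusted p was 0.135 for cul-2 and 0.229 for cul-3, and without N2 library a it was 0.0828 for cul-2, 0.128 for cul-3 and 0.0735 for cul-6. The call for cul-6 was also lost without YY1449 library b (adjusted p = 0.0784). With these lost calls the count of risen cullins fell to 1 without N2 library a and to 2 without YY1449 library a. Long genes were on average higher than short ones in YY1449: the smoothed log2 fold change was -0.29 at 500 bases of exon and 0.18 at 3000 bases. With that trend removed, the log2 values of cul-2 (exon length 3151 bases) and cul-3 (3165 bases) became 0.27 and 0.24 and no longer passed (adjusted p = 0.146 and 0.248), while cul-1 and cul-6 still did.

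Of the 19 SKR adaptors 4 rose and 15 did not pass, of which 6 had a mean of at least 100. The share called was 21.1%, against 17.5% of all features, of which 9.42% were higher and 8.04% lower. The calls were skr-3, skr-4, skr-7 and skr-15, all of them higher by 1.78- to 4.30-fold, and the median log2 fold change of all 19 was 0.83. The gene skr-4 (chromosome V, 19924224 to 19925033), an adaptor for CUL-6 in the intracellular pathogen response, had 163 and 209 normalized counts in YY1449 against 47.2 and 38.4 in N2. This was log2 2.11 ± 0.34 in the authors' deposited table (adjusted p = 2.61e-08), where it had the smallest p of the 122 genes. The second adaptor used with CUL-6, skr-3 (chromosome V, 16121084 to 16122649), had 213 and 262 in YY1449 against 139.6 and 117 in N2. Its value in the authors' deposited table was log2 0.88 ± 0.27 (adjusted p = 0.00917). Another adaptor of that response, skr-5, was not analysed here.

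The gene skr-7 (chromosome V, 4422427 to 4423011) had 281 and 363 normalized counts in YY1449 against 201 and 159 in N2. For skr-7 the authors' deposited table listed log2 0.83 ± 0.25 (adjusted p = 0.00685). The gene skr-15 (chromosome II, 3824155 to 3824709) had 70.1 and 59.4 in YY1449 against 20.4 and 29.1 in N2, and its log2 fold change in the authors' deposited table was 1.40 ± 0.50 (adjusted p = 0.0329). The groups did not overlap for any of the 4 genes. In skr-3, skr-4 and skr-7, YY1449 library b was the highest of the 4 and N2 library b the lowest, the reverse of the order in cul-1, cul-2 and cul-3. The skr-4 call held with any 1 library left out. Without YY1449 library b the adjusted p was 0.134 for skr-3 and 0.16 for skr-7, and without N2 library b it was 0.105 for skr-3 and 0.123 for skr-7. The skr-15 call was lost with each library in turn, at 0.197 and 0.0749 without YY1449 library a or b and 0.285 and 0.052 without N2 library a or b. The count of risen skr genes was then 1 without YY1449 library b, and 1 without N2 library b.

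The closest worm counterparts of Skp1 and main adaptors of CUL-1, skr-1 and skr-2, did not pass and their groups overlapped. The values of skr-1 were 2573 and 2451 normalized counts in YY1449 against 2296 and 2646 in N2. Those of its neighbour skr-2 were 1523 and 1184 in YY1449 against 1309 and 1426 in N2. The 95% intervals from the authors' deposited table were -0.23 to 0.28 for the log2 fold change of skr-1 and -0.32 to 0.29 for that of skr-2. Per kilobase of exon, skr-1 stood at 2911 in YY1449 and 2863 in N2 and skr-2 at 1785 and 1804, above skr-18 at 799.8 and 853, skr-7 at 551 and 308, skr-3 at 302 and 163, and skr-4 at 273 and 62.9. Also overlapping were skr-17 (378 and 279 in YY1449 against 285 and 355 in N2) and skr-18 (623 and 495 in YY1449 against 536 and 656 in N2). The pseudogene skr-11 overlapped as well, at 16.1 and 9.9 in YY1449 against 10.6 and 25.96 in N2. The authors' deposited table gave log2 0.05 ± 0.23 for skr-17, -0.09 ± 0.19 for skr-18 and -0.46 ± 0.85 for skr-11, none of which passed.

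Small clusters of SKR copies differed in their values, but a difference between clusters was not tested. At the right end of chromosome IV (17162097 to 17167792) skr-13, skr-9, skr-8 and skr-12 lie within 6 kb as an inverted arrangement, with exon lengths of 519, 585, 585 and 519 bases. All 4 had both YY1449 libraries above both N2 libraries, as did 29.4% of all features. The authors' deposited table lists log2 1.18 ± 0.65, 1.46 ± 0.95, 1.20 ± 0.55 and 1.38 ± 0.56 in that order, and none passed (adjusted p = 0.241, 0.374, 0.127 and 0.0745). Reads were few: skr-12 had 47.3 and 56.6 normalized counts in YY1449 against 24.7 and 14.5 in N2. For skr-8 they were 39.8 and 67.9 in YY1449 against 25.4 and 20.8 in N2. For skr-13 they were 25.6 and 53.7 in YY1449 against 19.7 and 14.5 in N2. For skr-9 they were 12.3 and 22.6 in YY1449 against 6.35 and 6.23 in N2. How reads were divided between such copies is not given in the sources used here, so the values of single copies are uncertain. Elsewhere, skr-10 (55.9 and 62.2 in YY1449 against 35.3 and 28.03 in N2) and skr-14 (98.5 and 107 in YY1449 against 61.3 and 48.8 in N2), the gene next to skr-7, also had both YY1449 libraries above both N2 libraries. By the authors' deposited table skr-10 stood at log2 0.89 ± 0.49 (adjusted p = 0.241) and skr-14 at 0.89 ± 0.38 (adjusted p = 0.0884).

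The cluster on chromosome X held no call either. Its genes skr-20, skr-19 and skr-21 had overlapping groups, and the authors' deposited table listed them at log2 0.29 ± 0.44, -0.03 ± 0.29 and 0.04 ± 0.32. The libraries read 55.9 and 74.95 in YY1449 against 62.0 and 43.6 in N2 for skr-20. They read 143 and 209 in YY1449 against 197 and 159.9 in N2 for skr-19, and 108 and 182 in YY1449 against 150.2 and 129.8 in N2 for skr-21. The one SKR gene with both YY1449 libraries below both N2 libraries was skr-16 (chromosome IV, 7168710 to 7169255), with 49.2 and 55.2 in YY1449 against 100.1 and 103 in N2. Its log2 fold change in the authors' deposited table was -0.96 ± 0.38 and did not pass (adjusted p = 0.0634). It passed as lower when log2 values were recentred on the median of the abundant features, those averaging 100 or more (adjusted p = 0.0459), which made the skr calls 4 higher and 1 lower, and when the adjustment ran over features with a mean of at least 10 (0.0428). With the length trend removed, skr-12 (adjusted p = 0.027) and skr-14 (0.0171) passed as higher and skr-16 did not (0.284).

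**Figure D2:**
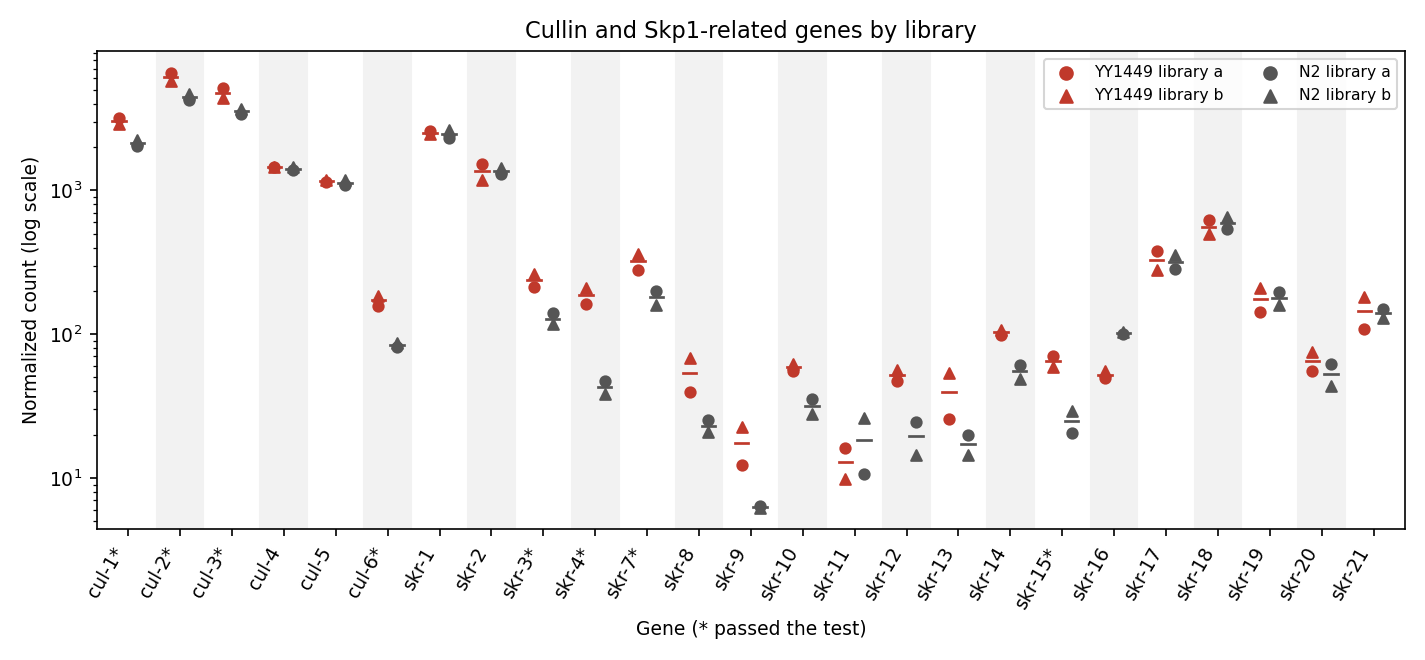
Normalized count (log scale) of each cullin and SKR gene in the 4 libraries, with circles for library a, triangles for library b and lines for group means of 2. YY1449 stands left of N2 and an asterisk marks genes that passed. The groups stand apart for cul-1, cul-2, cul-3 and cul-6 and for skr-3, skr-4, skr-7 and skr-15, and overlap for skr-1, skr-2 and cul-5. They stand apart as well for some genes that did not pass, narrowly so for cul-4.

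Among the BATH genes 8 of 43 rose, none fell, and the median log2 fold change was 0.38. The share called was 18.6%, near the 17.5% of all features, of which 9.42% were higher and 8.04% lower. Of these 43 genes, 37 had a mean of at least 10. The calls fell into 2 kinds, namely 6 genes of the left arm of chromosome II with means of 26.6 to 88.9 and 2 abundant genes, bath-42 and bath-43. The largest change among all 122 genes that passed was that of bath-13 (chromosome II, 2520842 to 2522060), with 49.2 and 48.1 normalized counts in YY1449 against 4.94 and 4.15 in N2. These are 52 and 34 reads in YY1449 against 7 and 4 in N2. This 10.6-fold difference is log2 3.41 ± 0.73 in the authors' deposited table (adjusted p = 6.2e-05), and the call held with any 1 library left out. Next to it lies bath-12 (2514977 to 2516097), annotated by RefSeq as a pseudogene, with 123 and 94.8 in YY1449 against 42.3 and 55.0 in N2. For bath-12 the log2 fold change in the authors' deposited table was 1.18 ± 0.39 (adjusted p = 0.018).

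A second stretch of the arm, from bath-21 to bath-24, held 9 of the genes, of which bath-21, bath-1 and bath-20 rose. The gene bath-21 (2014902 to 2026625) had 72.0 and 43.8 normalized counts in YY1449 against 16.9 and 19.7 in N2. The gene bath-1 (2027612 to 2028812) had 133 and 119 in YY1449 against 54.3 and 49.8 in N2. The gene bath-20 (2040276 to 2042547) had 50.2 and 39.6 in YY1449 against 11.99 and 13.5 in N2. Their log2 values in the authors' deposited table were 1.68 ± 0.56 for bath-21, 1.27 ± 0.36 for bath-1 and 1.83 ± 0.62 for bath-20 (adjusted p = 0.0187, 0.00393 and 0.0229). Copies between and beside them had log2 values of either sign, but a difference between copies was not tested. The most abundant of the stretch, bath-5, had 221 and 219 in YY1449 against 265 and 295 in N2, so both YY1449 libraries were the lower ones. The authors' deposited table listed bath-5 at log2 -0.35 ± 0.23 (adjusted p = 0.382), btb-4 at -0.54 ± 0.68, bath-24 at -0.41 ± 0.74, bath-3 at 0.38 ± 0.39 and bath-19 at 1.02 ± 0.47, and none of these passed. The pseudogene btb-3, also in the stretch, had overlapping groups and did not pass, at log2 0.85 ± 0.91.

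The remaining call of the arm was bath-47 (1601811 to 1604621), with 89.0 and 129 normalized counts in YY1449 against 38.1 and 45.7 in N2. Its log2 fold change in the authors' deposited table was 1.38 ± 0.40 (adjusted p = 0.00592), and 22 of its exon bases overlap bath-33 on the other strand. Of the 6 features within 10 kb of bath-47, 2 F-box genes also passed as higher and the others did not pass. The authors' deposited table lists fbxa-162 at log2 3.13 and fbxa-163 at log2 4.43, with low mean counts of 17 and 9. Other genes that passed varied in this. Within 10 kb, 2 of 4 features were called as higher for cul-2, 2 of 6 for bath-13, 0 of 10 for bath-20 and 0 of 7 for skr-4. Whether neighbours change together was not tested. The groups of the 6 bath genes of the arm that passed did not overlap. Without YY1449 library a the calls for bath-1 (adjusted p = 0.0585), bath-12 (0.214), bath-20 (0.17) and bath-21 (0.282) were lost. Without N2 library a those for bath-12 (0.208), bath-20 (0.162), bath-21 (0.153) and bath-47 (0.0958) were lost. Leaving out YY1449 library b ended the calls for bath-47 (0.13) and bath-20 (0.0523), and leaving out N2 library b those for bath-20 (0.0771) and bath-21 (0.0609). The count of risen BATH genes was 2 without YY1449 library a, 2 without N2 library a and 5 without YY1449 library b.

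The abundant BATH genes moved by less. On chromosome III, bath-42 (8161455 to 8163383) had 3293 and 3151 normalized counts in YY1449 against 2197 and 2486 in N2. The gene bath-43, which no annotation used here placed, had 1119 and 1102 in YY1449 against 785 and 858 in N2. The authors' deposited table gave log2 0.46 ± 0.13 for bath-42 (adjusted p = 0.00296) and 0.44 ± 0.15 for bath-43 (adjusted p = 0.0214). The calls were lost without YY1449 library a (adjusted p = 0.0519 for bath-42 and 0.124 for bath-43) and without N2 library a (0.111 for bath-42 and 0.209 for bath-43). That of bath-43 was also lost without YY1449 library b (0.0793) and after recentring of the log2 values (0.055). The 3 other most abundant BATH genes did not pass. For bath-40 the libraries read 2401 and 1961.5 in YY1449 against 1663 and 1834 in N2, which do not overlap, and the log2 value in the authors' deposited table was 0.32 ± 0.14 (adjusted p = 0.116). For bath-41 they read 1893 and 2133 in YY1449 against 1743 and 1979 in N2. For bath-44 they read 1009 and 987 in YY1449 against 839 and 937 in N2. The authors' deposited table gave log2 0.11 ± 0.14 for bath-41 (adjusted p = 0.748) and 0.17 ± 0.15 for bath-44 (adjusted p = 0.591).

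The MATH genes were mostly low, with 16 of 34 at a mean under 10, and 1 rose and 1 fell. The share called was 5.88%, against 17.5% of all features. The gene that rose, math-33 (chromosome V, 11113907 to 11118824), encodes the worm counterpart of the deubiquitylase USP7 and differs from the other MATH genes in carrying a protease domain. It had 8776 and 7763 normalized counts in YY1449 against 6170 and 6751 in N2, and the authors' deposited table listed log2 0.36 ± 0.12 (adjusted p = 0.0214). This is a 1.28-fold change in the most abundant of the 122 genes by mean count. The gene that fell, math-45 (chromosome II, 1510287 to 1517454), had 13.3 and 18.4 in YY1449 against 68.4 and 34.3 in N2. This 3.30-fold lower level is log2 -1.72 ± 0.62 in the authors' deposited table (adjusted p = 0.0356). The math-33 call was lost without YY1449 library a (adjusted p = 0.301), without N2 library a (0.234), after recentring (0.0667) and with the length trend removed (log2 0.12, 0.678), which left 0 higher and 1 lower in the last 2 settings. The math-45 call was lost without YY1449 library a (0.257), YY1449 library b (0.0756) or N2 library a (0.473).

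The most abundant MATH genes of the left arm did not pass. The group of math-26 overlapped, at 215 and 260.2 normalized counts in YY1449 against 283 and 214 in N2. Both YY1449 libraries of math-3 stood just above those of N2, at 249 and 247 in YY1449 against 245 and 195 in N2. The pseudogene math-27 read 201 and 229 in YY1449 against 184 and 173 in N2. The log2 values in the authors' deposited table were -0.07 ± 0.25 for math-26, 0.17 ± 0.24 for math-3 and 0.26 ± 0.25 for math-27. No read was found in either YY1449 library for math-5, math-6, math-11, math-29 and math-31, which had 2, 2, 3, 2 and 4 reads over both N2 libraries. These counts are too few to give a fold.

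Of the 20 BTB genes 2 fell and none rose, while their median log2 fold change was 0.33. The share called was 10%, against 17.5% of all features, of which 9.42% were higher and 8.04% lower. Both that fell lie outside the left arm of chromosome II. The gene btb-14 (chromosome II, 12383463 to 12384692) had 78.6 and 63.6 normalized counts in YY1449 against 146 and 142 in N2. Its log2 fold change in the authors' deposited table was -1.01 ± 0.33 (adjusted p = 0.0172), and its exons overlap over 100 bases with sre-42 on the other strand, from which unstranded reads cannot be told apart. The gene btb-20 (chromosome II, 14522385 to 14523522) had 164 and 149.9 in YY1449 against 258 and 282 in N2. For btb-20 the authors' deposited table listed log2 -0.78 ± 0.24 (adjusted p = 0.0118). Its neighbour btb-19, the most abundant BTB gene, had 316 and 297 in YY1449 against 329 and 345 in N2 and did not pass, with log2 -0.13 ± 0.21 and an adjusted p of 0.823 in the authors' deposited table.

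Both BTB calls were sensitive to single libraries. With YY1449 library a, YY1449 library b, N2 library a or N2 library b left out, the adjusted p of btb-14 was 0.0517, 0.148, 0.0997 and 0.0637. That of btb-20 was 0.0544, 0.0927, 0.0442 and 0.0892 in the same order, so of these 4 fits it passed in the one without N2 library a. With the length trend removed they stood at 0.0558 for btb-14 and 0.0675 for btb-20. The next most abundant BTB genes were btb-6, at 69.1 and 72.1 in YY1449 against 44.4 and 56.1 in N2, and btb-9, at 40.7 and 42.4 in YY1449 against 62.0 and 65.4 in N2. The strains did not overlap in either, and the authors' deposited table listed btb-6 at 0.50 ± 0.42 and btb-9 at -0.62 ± 0.45 on the log2 scale, neither of which passed.

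**Figure D3:**
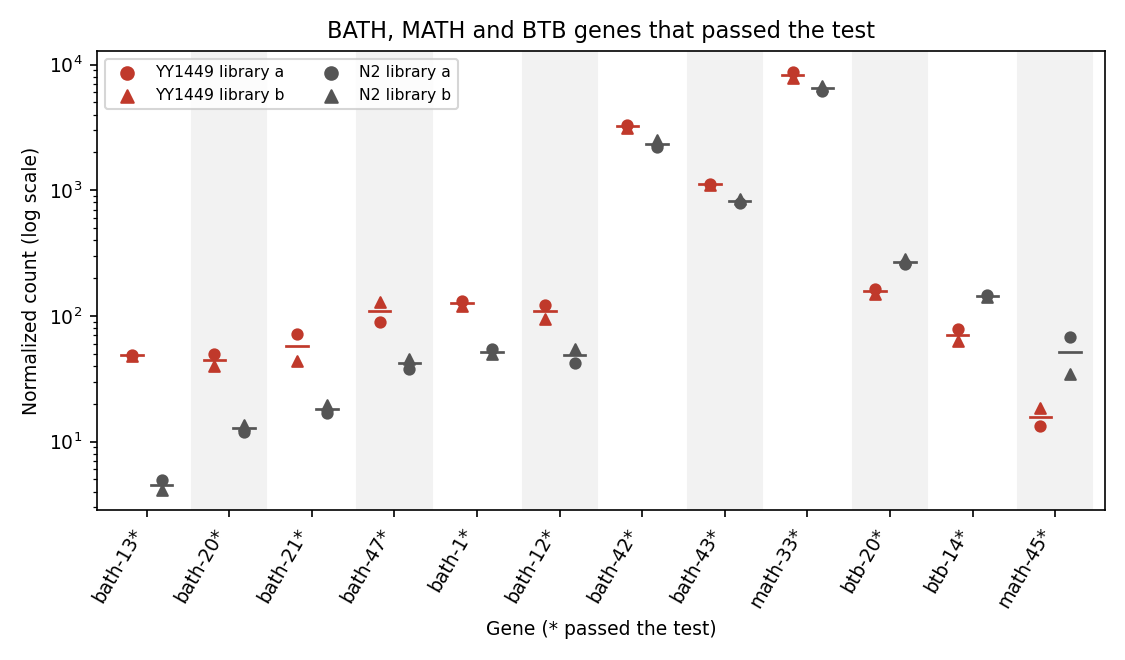
Normalized count (log scale) in each library of the 8 bath, 2 math and 2 btb genes that passed, with circles for library a, triangles for library b and lines for group means of 2. YY1449 stands left of N2. The 8 bath genes and math-33 are higher in YY1449, and btb-20, btb-14 and math-45 are lower, with no overlap between strains in any of the 12 genes.

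The families lie mostly in 1 region of the genome. Of the 122 genes, 85 lie on chromosome II, and 76 of these lie between 1 and 4 Mb on its left arm: 30 bath, 32 math and 13 btb genes and skr-15. Of these 76 genes 7 rose and 1 fell by the authors' deposited table, or 10.5%, against 9.67% of the 538 other features there, of which 6.13% were higher. These shares are not matched for abundance. The median mean count was 27.7 for the 76 genes and 6.55 for the others, and 24 of 76 and 312 of 538 had a mean under 10. The median log2 fold change was 0.27 for the 76 genes and 0.26 for the other features of the arm. Of the 46 genes elsewhere, 10 were higher and 2 lower, or 26.1%, against 17.5% of all features. These were more abundant, with 26 of the 46 at a mean of at least 100, where 34% of all features were called. On the arm 6 of 30 bath genes rose, 1 of 32 math genes fell and 0 of 13 btb genes passed, with median log2 values of 0.56, -0.41 and 0.85. A block of 8 genes from bath-28 to bath-8 held 0 calls, with 7 log2 values above 0, 1 below and a median of 0.36. The genes bath-12, bath-13 and bath-18, which lie close together, were above N2 in both YY1449 libraries. The third of these, bath-18, had 7 and 6 reads in YY1449 against 3 and 5 in N2 and did not pass.

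**Figure D4:**
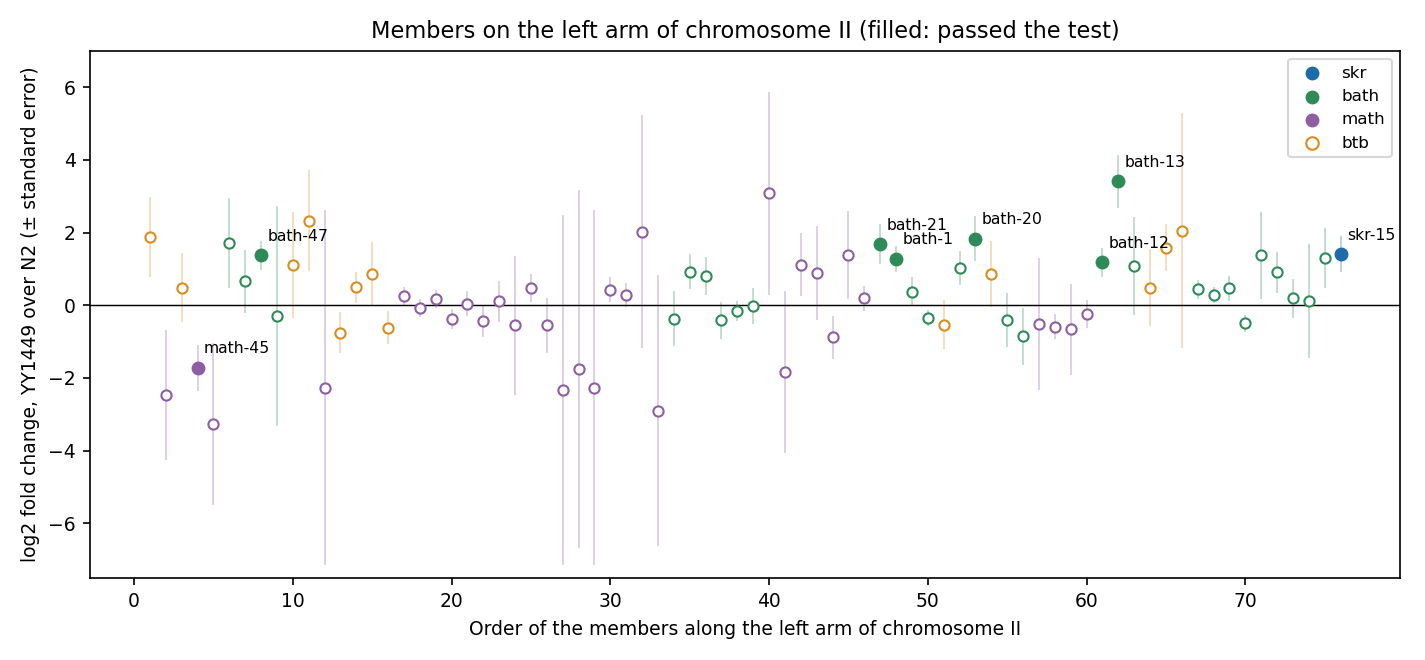
Log2 fold change (YY1449 over N2, ± the deposited standard error) of the 76 genes of the left arm of chromosome II in their order along it, coloured by family. Filled, named points passed. Of the 6 bath genes that rose, bath-21, bath-1 and bath-20 lie in the same stretch, and bath-12 and bath-13 side by side. The genes bath-47 and skr-15, which also rose, lie apart from these, and math-45 is the one lower call.

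The threshold of the test lies among genes of like size. Just inside it were skr-15 (adjusted p = 0.0329) and math-45 (0.0356) in the authors' deposited table. Just outside were skr-16 (0.0634), skr-12 (0.0745), btb-16 (0.079) and skr-14 (0.0884). The gene btb-16 on the left arm had 36.9 and 39.6 normalized counts in YY1449 against 14.8 and 10.4 in N2, at log2 1.59 ± 0.66 in the authors' deposited table, and 117 of its exon bases overlap btb-18. A limma fit was made on log2 of the recovered normalized count plus 1, over features with a mean of at least 10. Of the 94 family genes it covered, 25 were higher and 5 lower at an adjusted p of 0.05, where 36.7% of the features it covered passed. That fit called 9 skr genes higher and 1 lower, adding skr-8 (limma adjusted p = 0.0165), skr-10 (0.0329), skr-12 (0.00531), skr-13 (0.0465) and skr-14 (0.00945) as higher and skr-16 (0.00638) as lower.

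Genes that work with the cullins were listed for comparison: 45 RING, neddylation, signalosome, adaptor and receptor genes and genes of the intracellular pathogen response, of which 42 were in the table. Of these, 9 rose and 2 fell by the authors' deposited table, or 26.2%, with a median log2 fold change of 0.15. The median of their mean counts was 1308, and at a mean of at least 1000 the share called among all features was 47%. In the RING, neddylation and signalosome list 2 of 17 were higher and 2 lower, among the adaptors of other cullins 0 of 3 passed, 6 of 18 substrate receptors were higher and 0 lower, and 1 of 4 further genes tied to the intracellular pathogen response was higher, a list that holds pals-22 and pals-25 as well as ligase genes. The gene that rose, C28G1.5, also named rcs-1, encodes the RING protein that works with CUL-6. It had 399 and 618 normalized counts in YY1449 against 264 and 200.4 in N2, and the authors' deposited table gave log2 1.12 ± 0.24 (adjusted p = 8.6e-05). Without YY1449 library b the calls for cul-6 (adjusted p = 0.0784), skr-3 (0.134) and C28G1.5 (0.0632) were lost together, and that for skr-4 held. An F-box gene of the CUL-6 ligase, fbxa-158, had 7 and 5 reads in YY1449 against 3 and 1 in N2 and did not pass. The regulators of the response, pals-22 and pals-25, had overlapping groups, and the authors' deposited table listed them at log2 0.29 ± 0.64 and -0.12 ± 0.54.

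The RING protein of most cullins moved the other way. The gene rbx-1 had 1942 and 1599 normalized counts in YY1449 against 2854 and 3163 in N2, at log2 -0.76 ± 0.14 in the authors' deposited table (adjusted p = 1.55e-06). The signalosome subunit csn-2, part of the complex that removes NEDD8 from cullins, had 1915 and 1754 in YY1449 against 2618 and 2633 in N2. For csn-2 the authors' deposited table lists log2 -0.52 ± 0.13 (adjusted p = 0.000614). The exchange factor cand-1, which swaps the receptor modules of cullins, was higher, at 5958 and 5374 in YY1449 against 3869 and 4355 in N2. The ubiquitin-activating enzyme uba-1, whose reads were not recovered, was higher as well. Their log2 values in the authors' deposited table were 0.46 ± 0.12 for cand-1 (adjusted p = 0.00212) and 0.48 ± 0.11 for uba-1 (adjusted p = 0.000146).

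The receptors that passed were 6 of 18, or 33.3%, all higher by log2 0.47 to 0.60. Their list had a median mean count of 2013, and 32.5% of all features with a mean of at least 1000 were higher. The F-box gene sel-10, whose product binds substrates for CUL-1 ligases, had 5830 and 5616 normalized counts in YY1449 against 3930 and 4103 in N2. The CUL-2 receptors were zyg-11 (8192 and 8061 in YY1449 against 5020.3 and 5718 in N2), zer-1 (5370.3 and 4114 in YY1449 against 3212 and 3489 in N2) and zif-1 (2750.0 and 2503 in YY1449 against 1817 and 1969 in N2). The CUL-4 receptor wdr-23 had 2091 and 1932 in YY1449 against 1410.2 and 1474 in N2. The sixth, gad-1, a WD-repeat gene, had 2356 and 2329 in YY1449 against 1522 and 1731 in N2. The log2 values in the authors' deposited table were 0.51 ± 0.11 for sel-10, 0.60 ± 0.12 for zyg-11, 0.50 ± 0.14 for zer-1, 0.47 ± 0.13 for zif-1, 0.48 ± 0.13 for wdr-23 and 0.53 ± 0.13 for gad-1. The CUL-3 receptor mel-26, a gene with MATH and BTB domains that is not named as a BATH gene, did not pass (log2 0.19 ± 0.12 by the authors' deposited table, adjusted p = 0.325). With any 1 library left out the calls for rbx-1, csn-2, sel-10 and zyg-11 held. Without YY1449 library a those for cand-1 (adjusted p = 0.0815), wdr-23 (0.0714), zer-1 (0.353) and zif-1 (0.082) were lost. Without N2 library a those for cand-1 (0.0906), gad-1 (0.0604), wdr-23 (0.0503), zer-1 (0.088) and zif-1 (0.071) were lost. The count of the list was then 6 without YY1449 library a and 5 without N2 library a, where uba-1 could not be refitted and is not counted. With the length trend removed 4 were higher and 2 lower, C28G1.5 had no exon length and was not tested, and cand-1 (0.316), uba-1 (0.0739), wdr-23 (0.115) and zer-1 (0.155) no longer passed.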

How the data were processed

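2 tables of the authors' own comparison of YY1449 with N2 were deposited, and of their 18638 features the smaller holds the 3254 whose adjusted p is below 0.05. The submitters' processing notes name STAR 2.7.0a, SAMtools 1.3.1, cutadapt 1.14 and Trim Galore 0.4.4, and the builds WBcel235 and ce11. How reads, including those with several matches, were counted and which model was fitted is not given in the sources used here. Per the labels' protocols the library kit was Nextera XT, which keeps no strand. Per the file headers the deposited signal column is a mean of normalized counts, the deposited log2 column the log2 fold change with its standard error, the deposited score column the Wald statistic and the deposited p-value columns its two-sided p and adjusted p, which matched a Benjamini-Hochberg adjustment over all features. Replicates are called biological in the design text, with no word on separate cultures.

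The reads of each library were computed here from the means, which are printed to 15 significant digits and are sums of whole reads times 4 fixed steps. Of 18426 features with a mean under 10000, 18377 (99.7%) had 1 solution within the limits of the search. Libraries were assigned to a strain by the sign of log2 of features with reads in 1 library. With the recovered reads and the spread that gives the deposited standard error, a refit came within 0.001 of the deposited log2 for 12159 of 12165 features. The search for all but scarce features used that log2, so the refit is only a partial check. Leaving out a library used that spread unchanged. The size factors were 1.06 and 0.707 in YY1449 and 1.42 and 0.963 in N2. A limma 3.58.1 fit (R 4.3.3, mean-variance trend, pseudocount 1) was added after seeing the data. Intervals are 95% normal intervals from the deposited errors. Steps were tested on simulated data. Ensembl release 115 placed 102 of the 122 genes, and 19 were matched to RefSeq pseudogenes of WBcel235 in a gene table. Overlap is of exons, and 21 of the genes have any.

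Named are all family genes that passed, all cullins, all skr genes (each had a mean of 10 or more), the 3 most abundant others of the bath, math and btb genes, those at the threshold, and partner genes that passed. The genes bath-3, bath-5, bath-18, bath-19, bath-24, btb-3, btb-4, fbxa-162, fbxa-163, fbxa-158, mel-26, pals-22, pals-25 and the 5 math genes with no YY1449 read were chosen after their values were seen. The members and lists were chosen with earlier results of these data known. No sequence is shown because none was used here.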

Additional observations from a re-analysis of the deposited data

How the results depend on the processing

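No paired analysis was possible because the recovered libraries carry no replicate number. Among the settings tried no log2 value of a gene that passed changed sign, but most settings could not have changed it. Several kept the deposited log2. The groups of the family genes that passed did not overlap, so fits of the recovered reads, with or without a library, could not reverse them. Only recentring and removal of the length trend could have changed a sign. The 20 calls among the 122 genes became 11 at a threshold of 0.01 and 11 with an absolute log2 of at least 1 as well. Among all 18638 features the 3254 calls became 2198 and 1176 in these settings. They became 3201 after recentring, and 2287 of 16345 features with the length trend removed. Over the same 2 settings, bath calls were 4 at 0.01, math and btb calls 0 at 0.01, and with the log2 minimum there were 2 skr, 1 cul, 1 math and 1 btb calls and 1 of the partner list. Recentring by 0.06 on the log2 scale left 1 math call. Removing the length trend left 2 cul, 1 math and 0 btb calls and 6 of the partner list, with C28G1.5 not tested for want of an exon length. The limma fit made 10 skr calls. A t distribution with 2 degrees of freedom for the deposited statistic left 0 calls in each family, in the partner list and among all 18638 features. By that distribution 2 of the 122 genes and 1137 features had an unadjusted p under 0.05. The limma fit called 30 of the 94 family genes it covered, where 36.7% of the features it covered passed. With 1 library left out, calls ran from 7 to 13 in all, 1 to 3 for skr, 1 to 4 for cul, 2 to 6 for bath, 0 to 2 for math, 0 to 1 for btb and 5 to 10 for the partner list, where uba-1 could not be refitted. The cause was not tested. Calls among all features also became fewer with any 1 library left out. A lone library was assumed to vary like the others. Depth limits the 28 genes with a mean under 10, whose standard errors of log2 were 1.10 to 4.91, so that changes of a few fold were not detectable in them.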
